A study of Homo sapiens with 12 samples.

Results

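The genes described here are 10 genes of the endoplasmic reticulum (ER) chaperone system and the unfolded protein response (UPR): HSPA5, HSP90B1, DNAJB9, DNAJC3, XBP1, HERPUD1, SDF2L1, CALR, PDIA4 and EDEM1. They were listed by symbol, with earlier results of these data known, to ask whether ER stress genes move when citrate handling is disturbed. All 10 were found once each among the 70116 genes of the count table, and all 10 were among the 16197 genes with enough counts to be tested. The study knocked down 3 genes of citrate handling in the human pancreatic cancer line MiaPaCa-2, an established cell line, by transfection of small interfering RNA (siRNA), and sequenced polyadenylated RNA. The groups were siControl, siSLC25A1 (against the mitochondrial citrate carrier), siACLY (against ATP citrate lyase, which makes cytosolic acetyl-CoA from citrate) and siACO1 (against cytosolic aconitase), with 3 replicate libraries each, 12 in all. All groups are of the same cell line and all were transfected. The siRNA sequences, the time after transfection and the nutrient condition at harvest are not given in the sources used here, nor is it said whether replicates were separate cultures, so p-values measure the spread between these libraries, which may be technical.

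Proteins that enter the secretory pathway fold in the ER with the help of chaperones such as BiP, the product of HSPA5, of lectins such as calreticulin, and of disulfide isomerases. When unfolded proteins build up, 3 sensors in the ER membrane respond: IRE1 (the gene ERN1) splices the XBP1 transcript into one that encodes an active transcription factor, ATF6 is cut to release another, and PERK (EIF2AK3) slows translation and favours ATF4, a factor that other kinases can also favour. XBP1 and ATF6 raise chaperones, folding enzymes and the machinery of ER-associated degradation (ERAD), which returns misfolded proteins to the cytosol. The pancreas is a secretory organ and its exocrine cells depend on this system.

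ATF6 and XBP1 act through short elements near the start of their target genes, and these are printed first because 6 of the 10 genes hold one. An ER stress element (ERSE) was searched as CCAAT, any 9 bases and CCACG, and ERSE-II as ATTGG, any 1 base and CCACG, on both strands of 300-base windows (250 bases before to 50 after a start site) from RefSeq on GRCh38.p14, where the 10 genes had 12 windows. Capitals mark the matched parts, each stretch has 10 flanking bases, and sequences run 5′ to 3′ on the strand of the gene, so that a reversed ERSE reads CGTGG, 9 bases and ATTGG, and a reversed ERSE-II reads CGTGG, 1 base and CCAAT.
HSPA5 (chr9:125241381-125241419, minus strand): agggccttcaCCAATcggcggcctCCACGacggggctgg
HSP90B1 (chr12:103930206-103930349, plus strand): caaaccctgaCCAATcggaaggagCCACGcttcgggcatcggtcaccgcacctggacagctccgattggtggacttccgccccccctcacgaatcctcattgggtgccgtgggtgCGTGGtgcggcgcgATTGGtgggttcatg
XBP1 (chr22:28800593-28800631, minus strand): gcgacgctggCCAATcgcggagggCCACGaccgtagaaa
CALR (chr19:12938374-12938412, plus strand): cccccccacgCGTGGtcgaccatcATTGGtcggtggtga
HERPUD1 (chr16:56932015-56932045, plus strand): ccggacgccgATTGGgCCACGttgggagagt
SDF2L1 (chr22:21642104-21642134, plus strand): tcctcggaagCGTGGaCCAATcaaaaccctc
HSPA5, HSP90B1, XBP1 and CALR held an ERSE, and HSP90B1 held 2, the second reversed. HERPUD1 and SDF2L1 held an ERSE-II.

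Together 6 of the 10 genes had an ERSE or ERSE-II, against 46 of 35116 promoter windows of the same length (0.131%) and 44 of 27305 genes (0.161%). These motifs are known as elements of ER stress genes, and the 10 genes were listed as such genes. The difference in shares is therefore a description and not a test. The motif part CCACG alone was in all 10, but it was also in 38.1% of all windows. The UPR element TGACGTGG was in 0 of the 10 and in 0.729% of all windows. HERPUD1 also held a match to TGATGNAA, the composite element bound by ATF4 with its partners, at 176 to 169 bases before the start in reversed orientation, as did 3.62% of all windows. DNAJB9, DNAJC3, PDIA4 and EDEM1 had no ERSE, ERSE-II, UPR element or composite element in this window. A match is a run of letters and not evidence of binding.

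**Figure D1:**
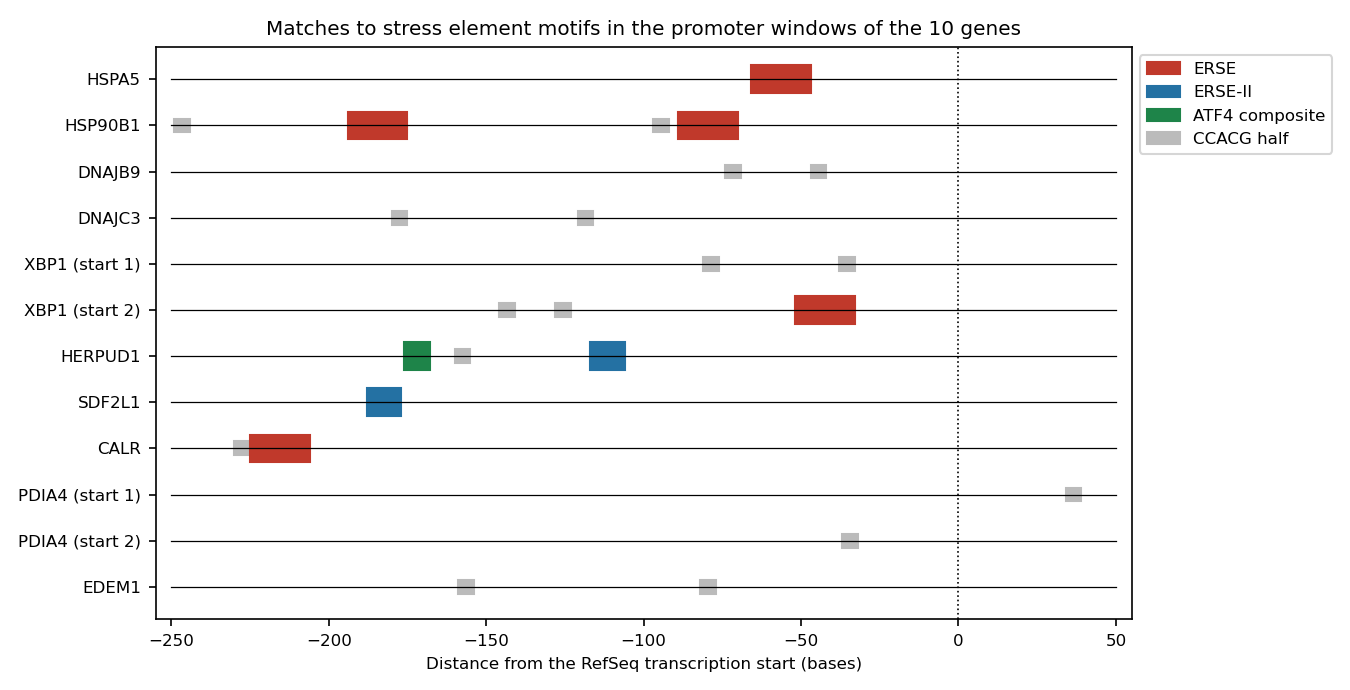
Position of motif matches (coloured boxes) in the promoter windows of the 10 genes, as distance in bases from each RefSeq start site; genes with 2 starts have 2 rows. The ERSE of HSPA5 lies 66 to 48 bases before the start, that of XBP1 52 to 34, and the ERSE-II of HERPUD1 117 to 107, while 4 genes show grey CCACG matches only.

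Library totals ran from 24159424 to 43792811 counts. Levels are counts scaled to the library (CPM) with factors from the trimmed mean of M values method (TMM), and n = 3 libraries a group throughout. The targets checked the labels: SLC25A1 was at 134 ± 0.691 CPM (SD) in siControl and 11.7 ± 1.18 in siSLC25A1, ACLY at 499 ± 7.55 and 36.1 ± 0.504 in siACLY, and ACO1 at 45.0 ± 1.57 and 1.68 ± 0.331 in siACO1. The carcinoma line markers KRT8, KRT18, KRT19 and VIM were present in every library, whereas KRT7, EPCAM and CDH1 stayed under 1 CPM. Markers of acinar, endocrine, immune and endothelial cells, summed within each class, came to at most 0.805 CPM in any library. Of 5 fibroblast markers only COL1A2 was present (784 to 1592 CPM, with the sum of the list at 875 to 895 in siControl and 1546 to 1592 in siACO1), and COL1A1, COL3A1, DCN and LUM were at or under 0.250 CPM. Replicate 3 of siACO1 stood apart from its group, with a chi-square per degree of freedom of 11.9 and 12.6 against replicates 1 and 2, which differed by 2.31.

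Replicate 1 of siSLC25A1 was the lowest of its group for all 10 genes, and replicate 3 of siACO1 was the highest of its group for 9 of the 10. The remaining SLC25A1 transcript was 12.9, 10.5 and 11.7 CPM in siSLC25A1 replicates 1, 2 and 3, so that replicate 1 also kept the most of it, whose part in the order of the libraries was not tested. The 10 genes together took 0.374% to 0.381% of the scaled counts in siControl, 0.410% to 0.498% in siSLC25A1, 0.364% to 0.383% in siACLY and 0.396% to 0.420% in siACO1. Only the siACLY range overlapped that of the controls.

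In siSLC25A1, all 10 genes were higher than in siControl, by 13.8% to 52.9%, and in every case the lowest siSLC25A1 library was above the highest control. A gene was called at an edgeR quasi-likelihood p under 0.05 after Benjamini-Hochberg adjustment over the 16197 genes. By this rule 10 of 10 were called and all were higher, against 19.6% of all genes called, 10.3% called higher and 9.27% called lower, and all 3 libraries lay above all 3 controls for 18.4% of all genes. The median log2 fold change of the 10 was 0.35, and that of all genes tested was -0.0045. After knockdown of ACLY, 2 were higher (XBP1 and HERPUD1) and 2 lower (HSP90B1 and PDIA4), with a median of 0.02. These 4 of 10 stand beside 36.7% of all genes called, 18.4% higher and 18.3% lower. After knockdown of ACO1, 2 were higher (DNAJB9 and CALR) and 1 lower (SDF2L1), with a median of 0.04, beside 37.1% of all genes called, 17.8% higher and 19.3% lower. The shares called in siACLY and siACO1 were thus near or below those of all genes. The 3 comparisons share their control libraries.

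**Figure D2:**
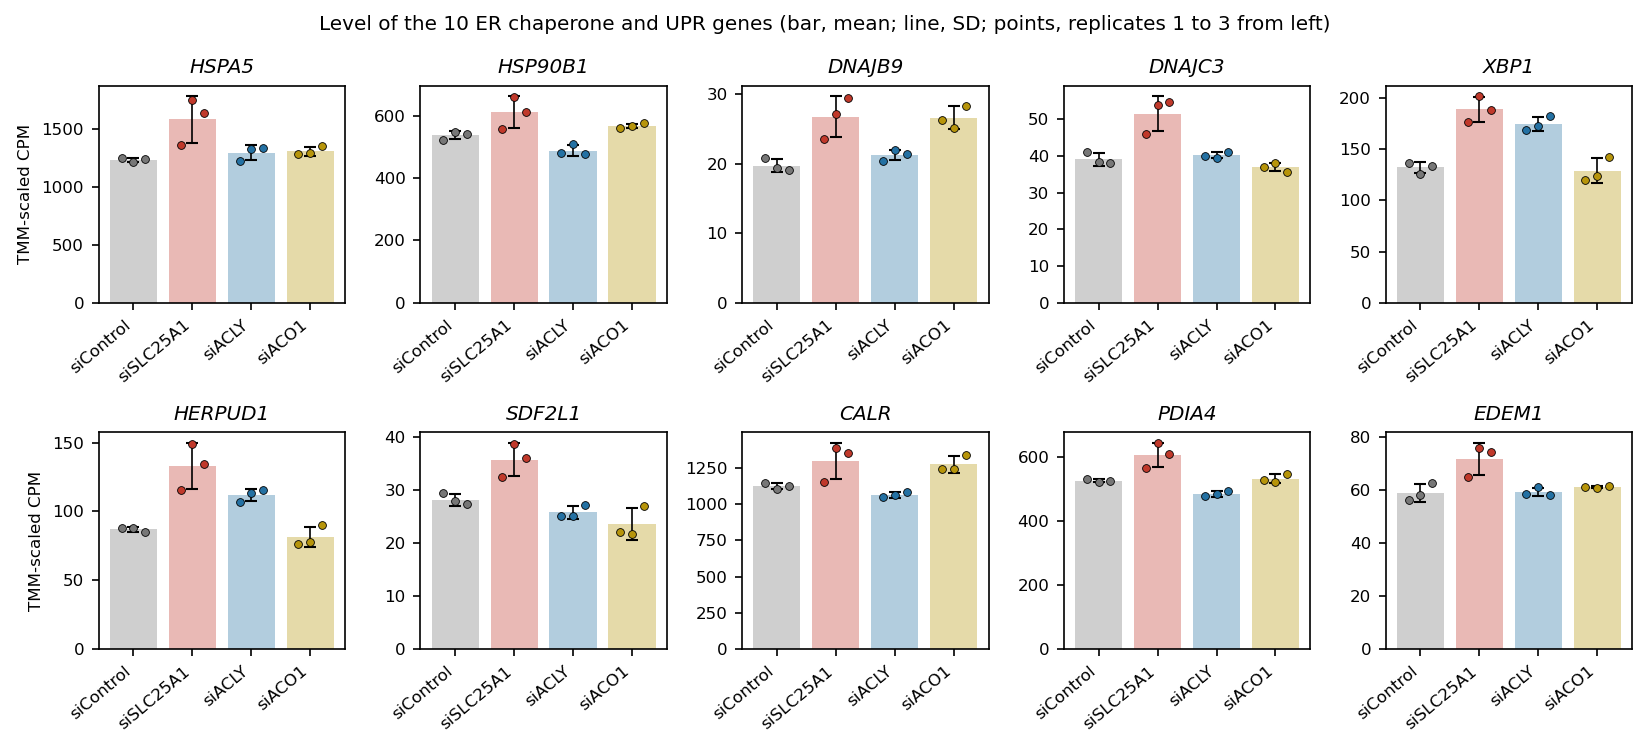
TMM-scaled CPM of the 10 genes in the 12 libraries (points, replicates 1 to 3 from left to right), with the group mean (bar, from 0) and SD (line). The red siSLC25A1 points lie above all grey siControl points in each panel, and replicate 1 is the lowest red point in each.

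The master chaperone HSPA5 (ENSG00000044574.9, chr9:125234853-125241330) encodes BiP, which binds unfolded chains and holds the sensors inactive. It was at 1244, 1209 and 1237 CPM in siControl replicates 1, 2 and 3, and at 1358, 1746 and 1631 CPM in those of siSLC25A1. The siACLY libraries held 1218, 1326 and 1330 CPM and the siACO1 libraries 1280.5, 1287 and 1349. The first knockdown thus stood clear of the controls, with a coefficient of variation of 12.6% against 1.499% in siControl, while the siACLY range overlapped the controls and the siACO1 range lay just above them. The log2 fold change was 0.36 (SE 0.07, adjusted p = 0.00122) in siSLC25A1, 0.07 (95% interval -0.07 to 0.21, adjusted p = 0.459) in siACLY and 0.09 (-0.06 to 0.23, adjusted p = 0.354) in siACO1. Without siSLC25A1 replicate 1 the first of these was 0.46.

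HSP90B1 (ENSG00000166598.16, chr12:103930107-103953645) encodes GRP94, the HSP90 of the ER. Its levels were 522, 547 and 541 CPM in siControl, 559, 661 and 614 in siSLC25A1, 480.4, 508 and 477 in siACLY and 561, 566 and 576 in siACO1, so that no knockdown group overlapped the controls and siACLY lay below them. The change in siSLC25A1 was 0.19 on the log2 scale (SE 0.05, adjusted p = 0.00393), but without siSLC25A1 replicate 2 it was 0.13 and lost its call (adjusted p = 0.0734). The fall in siACLY was -0.14 (SE 0.05, adjusted p = 0.0207) and lost its call when library totals replaced TMM (-0.09, adjusted p = 0.115). In siACO1 the change was 0.08 (95% interval -0.01 to 0.18, adjusted p = 0.180). Of the 31-base stretches of the transcripts, 18.7% for HSPA5 and 13.1% for HSP90B1 also occurred in other genes, the most among the 10.

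The co-chaperones of BiP include DNAJB9 (ERdj4, ENSG00000128590.5, chr7:108569568-108574850), DNAJC3 (p58IPK, which also inhibits PERK; ENSG00000102580.15, chr13:95677139-95794989) and SDF2L1 (a partner of the ERdj3 co-chaperone; ENSG00000128228.5, chr22:21642261-21644298). DNAJB9 was at 20.8, 19.3 and 19.05 CPM in siControl, 23.6, 27.2 and 29.5 in siSLC25A1, 20.4, 21.9 and 21.4 in siACLY and 26.4, 25.2 and 28.4 in siACO1. It was higher in both siSLC25A1 (0.43, SE 0.08, adjusted p = 8.74e-05) and siACO1 (0.43, SE 0.07, adjusted p = 3.28e-05), with no overlap with the controls in either. DNAJC3 was at 41.2, 38.2 and 38.03 CPM in siControl, 46.0, 53.8 and 54.6 in siSLC25A1, 39.9, 39.6 and 41.1 in siACLY and 37.0, 37.97 and 35.7 in siACO1. Only its siSLC25A1 libraries stood above the controls (0.39, SE 0.06, adjusted p = 1.61e-05). The change was 0.04 (adjusted p = 0.678) in siACLY and -0.09 (adjusted p = 0.290) in siACO1, whose libraries all lay just below the controls. SDF2L1 was at 29.4, 27.9 and 27.3 CPM in siControl, 32.4, 38.7 and 36.1 in siSLC25A1, 25.04, 25.2 and 27.2 in siACLY and 22.1, 21.7 and 27.1 in siACO1. Its siSLC25A1 libraries lay above the controls (0.34, SE 0.08, adjusted p = 0.00147) and its siACO1 libraries below them (-0.25, SE 0.08, adjusted p = 0.0101). The siACLY libraries also lay below the controls, the highest only just, and the change was not called (-0.13, adjusted p = 0.189). The siACO1 call of SDF2L1 was lost without siControl replicate 1 (-0.22), siACO1 replicate 1 (-0.21) or siACO1 replicate 2 (-0.19), and without siACO1 replicate 3 the change was -0.37.

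XBP1 (ENSG00000100219.17, chr22:28794555-28800597), the transcription factor downstream of IRE1, had one of the largest changes of the 10. It was at 137, 126 and 134 CPM in siControl, 177, 202 and 189 in siSLC25A1, 169, 173 and 182 in siACLY and 120.5, 124 and 143 in siACO1. The siSLC25A1 and siACLY libraries were all above the controls, by 43.0% and 31.9% (0.52, SE 0.06, adjusted p = 4.30e-07, and 0.40, SE 0.06, adjusted p = 5.69e-06), and in siACO1 replicates 1 and 2 lay below the controls and replicate 3 above them (-0.03, adjusted p = 0.690). Without siACO1 replicate 3 the change was -0.11 (adjusted p = 0.0570). A count per gene does not separate the spliced from the unspliced transcript, so IRE1 activity was not measured.

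The degradation genes are HERPUD1 (Herp, a membrane protein of the ERAD complex; ENSG00000051108.15, chr16:56932048-56944863) and EDEM1 (a lectin-like protein that directs misfolded glycoproteins to ERAD; ENSG00000134109.11, chr3:5187646-5219957). HERPUD1 was at 88.0, 87.8 and 85.0 CPM in siControl, 116, 149 and 134 in siSLC25A1, 107, 113 and 115 in siACLY and 76.7, 77.7 and 90.1 in siACO1. It had the largest change of the 10 in siSLC25A1, 52.9% (0.61, SE 0.08, adjusted p = 3.87e-05), and was 28.4% higher in siACLY (0.36, SE 0.08, adjusted p = 0.00184). In siACO1 replicates 1 and 2 lay below the controls and replicate 3 above them (-0.09, adjusted p = 0.396), and without replicate 3 the change was -0.17 (adjusted p = 0.116). EDEM1 was at 56.0, 57.8 and 62.4 CPM in siControl, 64.7, 75.9 and 74.2 in siSLC25A1, 58.5, 60.9 and 58.1 in siACLY and 61.1, 60.8 and 61.5 in siACO1. Its siSLC25A1 libraries were above every control (0.29, SE 0.06, adjusted p = 0.000306) and the other knockdowns lay within the control range, at 0.01 (adjusted p = 0.905) and 0.06 (adjusted p = 0.436).

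The remaining 2 genes serve folding directly: CALR (ENSG00000179218.15, chr19:12938578-12944489) encodes calreticulin, a calcium-binding lectin chaperone, and PDIA4 (ERp72, ENSG00000155660.11, chr7:149003062-149028641) a disulfide isomerase. CALR was at 1143, 1101 and 1125 CPM in siControl, 1152, 1383 and 1353 in siSLC25A1, 1045, 1059 and 1081 in siACLY and 1241, 1238 and 1340 in siACO1. Its lowest siSLC25A1 library was only just above the highest control, and its siACO1 libraries were all above the controls. It was higher in siSLC25A1 (0.21, SE 0.05, adjusted p = 0.00423) and in siACO1 (0.18, SE 0.05, adjusted p = 0.00596), although without siACO1 replicate 3 the latter was 0.14 and lost its call (adjusted p = 0.0578). Its siACLY libraries all lay below the controls, but the difference of -0.08 was not called (adjusted p = 0.224). In a fit of siACLY and siControl alone it was called lower (-0.08, adjusted p = 0.0120). PDIA4 was at 532, 521 and 527 CPM in siControl, 567, 644 and 609 in siSLC25A1, 478, 485 and 495 in siACLY and 529, 522 and 549 in siACO1. It was above the controls in siSLC25A1 (0.20, SE 0.04, adjusted p = 0.000608), below them in siACLY (-0.12, SE 0.04, adjusted p = 0.0297) and overlapped them in siACO1 (0.02, adjusted p = 0.779). The siACLY call was lost with library totals (-0.07, adjusted p = 0.157) and without any 1 of siControl replicates 1, 2 and 3 or siACLY replicates 1 and 2, with log2 fold changes of -0.12 to -0.10 in these 5 fits. The siACLY fall of HSP90B1 was lost in 4 such fits, without siControl replicate 2 or 3 or siACLY replicate 1 or 3 (-0.13 to -0.12).

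**Figure D3:**
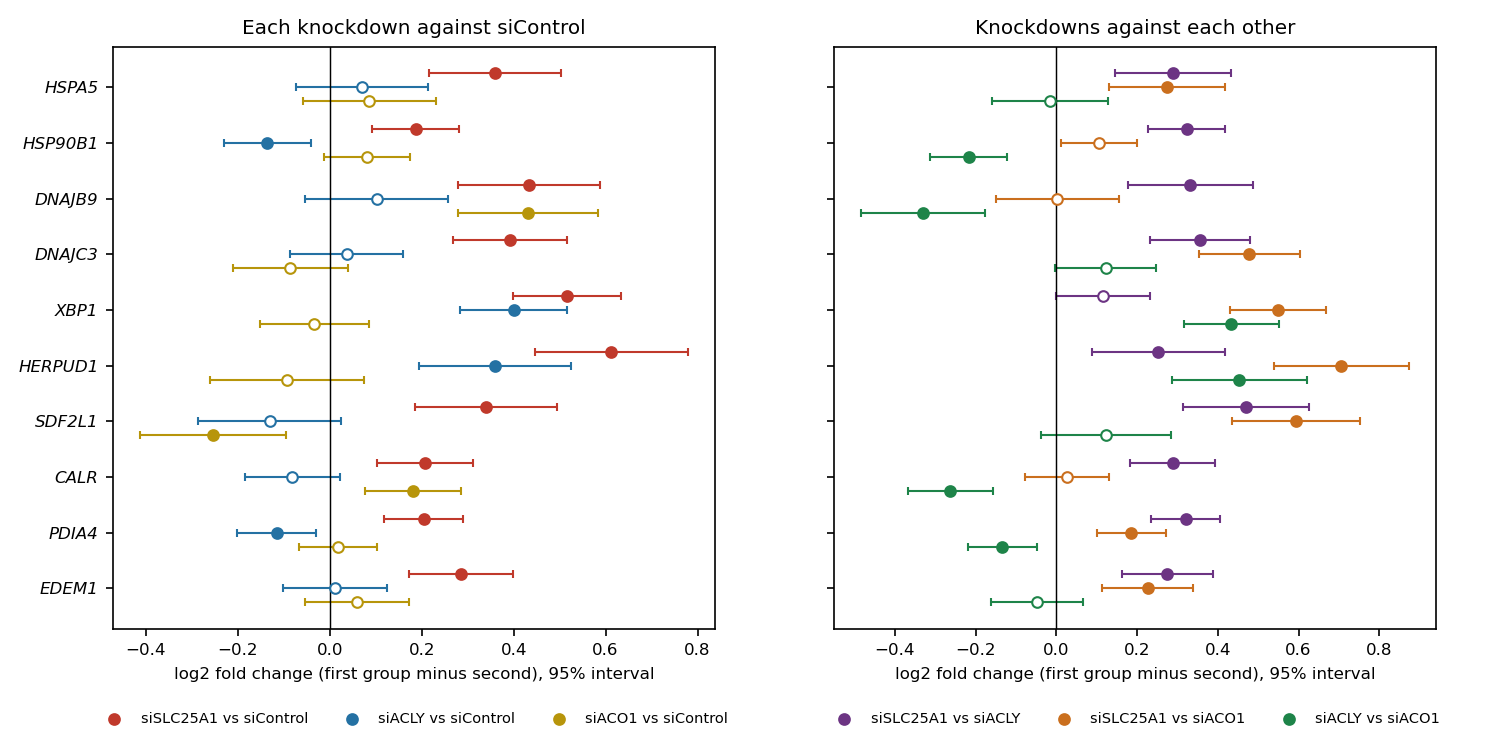
Log2 fold change of each gene with its 95% interval, for the knockdowns against siControl (left) and against each other (right); filled points are called at an adjusted p under 0.05 and open points are not. All 10 red points on the left are filled and right of 0, from 0.19 (HSP90B1) to 0.61 (HERPUD1).

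Comparing the knockdowns with each other tests whether the changes differed. Between siSLC25A1 and siACLY, 9 of the 10 were higher in siSLC25A1 and 0 lower, beside 33.8% of all genes called, 17.5% higher and 16.3% lower. The differences were largest for SDF2L1 (0.47, SE 0.08, adjusted p = 1.78e-05) and DNAJC3 (0.36, SE 0.06, adjusted p = 2.99e-05), and PDIA4 and HSP90B1 both differed by 0.32 on the log2 scale. XBP1 was not called, with a difference of 0.12 (95% interval -0.00078 to 0.23, adjusted p = 0.120), an interval that just includes 0. It was called in a fit of these 2 groups alone (0.12, adjusted p = 0.0368), without siSLC25A1 replicate 1 (0.16, adjusted p = 0.0444) and without siACO1 replicate 3 (0.12, adjusted p = 0.0221). That of HERPUD1, 0.25 (adjusted p = 0.0194), was no longer called without siSLC25A1 replicate 2 (0.17), siSLC25A1 replicate 3 (0.25) or siACLY replicate 1 (0.22). The 0.29 of HSPA5 (adjusted p = 0.00347) was not called in a fit of these 2 groups alone (adjusted p = 0.0852).

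Between siSLC25A1 and siACO1, 7 of the 10 were higher in siSLC25A1 and 0 lower, beside 42.1% of all genes called, 21.8% higher and 20.3% lower. HERPUD1 differed by 0.71 (SE 0.08, adjusted p = 2.68e-06), SDF2L1 by 0.59, XBP1 by 0.55 and DNAJC3 by 0.48. DNAJB9 and CALR, the genes that were higher in both knockdowns, showed differences of 0.00 (95% interval -0.15 to 0.16, adjusted p = 0.983) and 0.03 (-0.08 to 0.13, adjusted p = 0.725), which leaves room for either sign. HSP90B1 differed by 0.11 (adjusted p = 0.0664). Without siSLC25A1 replicate 1, HSP90B1 (0.17, adjusted p = 0.00228) and CALR (0.10, adjusted p = 0.0435) were called here as well. Between siACLY and siACO1, XBP1 (0.43, adjusted p = 1.28e-06) and HERPUD1 (0.45, adjusted p = 0.000222) were higher in siACLY, and 4 genes were lower: DNAJB9 (-0.33), CALR (-0.26), HSP90B1 (-0.22) and PDIA4 (-0.13). The PDIA4 call was lost without siACLY replicate 1 (-0.12, adjusted p = 0.0525). SDF2L1 was not called (0.12, adjusted p = 0.217), but without siACO1 replicate 3 it was (0.24, adjusted p = 0.00943). The 6 of 10 genes called stand beside 42.1% of all genes called, 21.4% higher and 20.7% lower.

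Levels differed widely between the genes. Per kilobase of exon, siControl held 414 CPM of CALR, 315 of HSPA5, 161 of PDIA4 and 114 of HSP90B1, the abundant folding proteins. XBP1 followed with 43.7, SDF2L1 with 25.7 and HERPUD1 with 16.9, and then EDEM1 with 8.70, DNAJC3 with 7.00 and DNAJB9 with 6.96 (SDs of 0.485, 0.318 and 0.341). Only DNAJC3 and DNAJB9 were within their spread of each other in this order. In siSLC25A1 CALR (478 ± 46.2) and HSPA5 (404 ± 51.1) came closer than in siControl.

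Over the 12 libraries the 10 genes varied together to unequal degrees, as a description of libraries that fall into 4 groups and share each library's scaling. Of 45 pairs, 33 had a Pearson correlation of log2 CPM above 0.5 and 0 were below 0, with a median of 0.72. The closest pair was XBP1 and HERPUD1 (0.98), both high in siSLC25A1 and siACLY, and the most distant was XBP1 and CALR (0.10). The 5 other genes closest to HSPA5 were ZNF736 (0.94), MANF (0.92), EIF2AK3 (0.90), EBLN3P (0.89) and DNER (0.89), of which MANF (a secreted ER cofactor) and EIF2AK3 (PERK) belong to the lists below. Those closest to the mean of the 10 genes were ZNF736 (0.95), PRNP (0.94), DNER (0.94), MIS12 (0.93) and COPA (0.92), the last a subunit of the coat of Golgi vesicles.

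Of the 5 tested sensors and activating proteases, 4 were higher in siSLC25A1 and 0 lower (median 0.16), with 2 higher without siSLC25A1 replicate 2 or 3. The shares of all genes called were 19.6% in siSLC25A1 (10.3% higher and 9.27% lower), 36.7% in siACLY and 37.1% in siACO1. EIF2AK3 was at 13.01, 13.4 and 13.3 CPM in siControl and at 15.2, 19.2 and 19.9 in siSLC25A1, all above the controls (0.45, SE 0.09, adjusted p = 0.000625). ERN1 was 0.24 higher (adjusted p = 0.0140, not called without siControl replicate 2 or without siSLC25A1 replicate 2 or 3, at 0.20 to 0.23), ATF6 0.16 (adjusted p = 0.00718) and MBTPS2, a protease that cuts ATF6, 0.13 (adjusted p = 0.0372). The MBTPS2 call was lost without a filter on low counts, without siControl replicate 1 or 3 and without any 1 siSLC25A1 library (adjusted p = 0.0602 to 0.137). MBTPS1, the other such protease, was not called (0.10, adjusted p = 0.0683). It was called higher by DESeq2 (0.10, adjusted p = 0.0450), under which 5 of the list were higher. The same held in a fit of siSLC25A1 and siControl alone (adjusted p = 0.0278) and without siACO1 replicate 3 (adjusted p = 0.0133). In siACLY 4 of 5 were higher and 0 lower (median 0.13), led by ERN1 at 29.4, 32.9 and 34.9 CPM against 24.1, 23.4 and 23.9 in siControl (0.44, SE 0.07, adjusted p = 6.91e-06). MBTPS1 and MBTPS2 (both 0.13) and ATF6 (0.11) followed, and EIF2AK3 was not called (0.18, adjusted p = 0.136). This count was 2 without siControl replicate 1, 2 or 3 or siACLY replicate 1, and 1 without siACLY replicate 2, and the call of ERN1 was among those that held in each of these fits. In siACO1 MBTPS1 was higher (0.18; 3 genes were higher with library totals) and ERN1 lower (-0.19, adjusted p = 0.0378), the latter not called with library totals (-0.14) or without siACO1 replicate 1 or any 1 siControl library (-0.20 to -0.17). ATF6B was listed at 0 counts in every library, which is uncertain because how reads were counted is not given.

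Other folding genes moved less uniformly in siSLC25A1 than the 10. Among all genes, 19.6% were called in that comparison, 10.3% higher and 9.27% lower. Of 14 other ER chaperones and cofactors 5 were higher (3 without siControl replicate 1) and 0 lower (median 0.14), led by MANF, from 44.6 ± 2.54 to 68.3 ± 12.5 CPM (0.61, SE 0.13, adjusted p = 0.00819). UGGT1, the glucosyltransferase that senses misfolded glycoproteins, went from 177 ± 12.7 to 223 ± 6.24 CPM (0.34, adjusted p = 5.22e-05). The MANF call was lost in a fit of those 2 groups alone (adjusted p = 0.0504). Among 13 disulfide isomerases and oxidases 5 were higher and 0 lower (median 0.14). The 5 became 2 with no filter on low counts or without siSLC25A1 replicate 2, 3 without siControl replicate 1 or 3, and 8 without siACO1 replicate 3. ERO1B, an oxidase that feeds PDI, rose from 9.46 ± 0.459 to 15.5 ± 2.00 CPM (0.71, SE 0.10, adjusted p = 5.92e-06) and PDIA3 by 0.23. HYOU1 and FKBP2, listed at only 17 to 60 and 5 to 17 counts in a library, are uncertain.

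In the same comparison 6 of 18 tested ERAD genes were higher and 2 lower (median 0.10), or 44.4% called beside 19.6% of all genes. SYVN1, the ERAD ubiquitin ligase, rose from 70.1 ± 1.32 to 87.7 ± 4.80 CPM (0.32, adjusted p = 7.32e-06) and DERL1 was 0.22 higher (adjusted p = 0.0210, not called without siControl replicate 2 or 3 or siSLC25A1 replicate 2 or 3, at 0.18 to 0.21 and adjusted p = 0.0715 to 0.134), while OS9 (-0.12, adjusted p = 0.0470) and UBE2G2 (-0.10, adjusted p = 0.0494) were just past the threshold. Without siControl replicate 3 or siSLC25A1 replicate 2 the count of higher ERAD genes was 2, and with no filter on low counts it was 3. The count of lower ones was 0 or 1 in 11 of the 12 fits that left out a library. ER to Golgi transport had 7 of 17 higher and 0 lower (median 0.11), with the coat subunit SEC24D at 25.3 ± 1.82 and 37.8 ± 4.63 CPM (0.58) and the cargo receptor subunit MCFD2 at 190 ± 4.30 and 253 ± 2.31 CPM (0.41). Translocation and glycosylation had 2 of 25 higher (SEC61A1 by 0.14 and SSR1 by 0.13), 1 lower (SRPRB, -0.21, uncertain because 21.1% of its exon sequence is shared with overlapping genes) and a median of 0.02. The 12% called in this list was below the 19.6% of all genes. The 2 higher genes became 1 without siControl replicate 1 or 3 or siSLC25A1 replicate 2 or 3. They became 0 with no filter on low counts and 5 without siACO1 replicate 3. RPN2, of the same list, was listed at 0 to 4 counts, was not tested and is uncertain.

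The PERK and ATF4 outputs followed another order of knockdowns from the 10 genes. In siSLC25A1 8 of 9 tested were higher (median 0.42), in siACLY 9 of 9 (median 0.71), and in siACO1 0 were higher and 6 lower (median -0.29). Among all genes, 10.3% were higher in siSLC25A1 and 18.4% in siACLY, and 19.3% were lower in siACO1. The list includes ATF4 itself, and 3 of its genes are uncertain: DDIT3, ASNS and DDIT4, the last with 41.2% of its exon sequence shared. TRIB3, a pseudokinase induced by ATF4, was at 128, 110.3 and 123 CPM in siControl, 172, 191 and 194 in siSLC25A1, 217, 219.8 and 234 in siACLY and 96.9, 93.3 and 105 in siACO1. None of the knockdown groups overlapped the controls, and siACLY was highest (0.89, SE 0.06, adjusted p = 1.27e-11, against 0.62, SE 0.06, adjusted p = 1.66e-08, in siSLC25A1). ATF4 itself was at 344 ± 15.5 CPM in siControl, 442 ± 17.0 in siSLC25A1 (0.36, adjusted p = 1.35e-06), 390 ± 15.3 in siACLY (0.18, adjusted p = 0.00350) and 251 ± 17.1 in siACO1 (-0.46, adjusted p = 7.76e-09), so that of the 3 knockdowns siSLC25A1 had the highest mean. ATF3, an early stress factor, was 0.86 higher in siACLY, and DDIT3 (CHOP) 0.63 in siSLC25A1, although DDIT3 shares 39.6% of its exon sequence with overlapping genes and is uncertain. ASNS was 0.76 log2 units below siControl in siACO1, and is uncertain, with 44.6% of its exon sequence shared. Tested directly between siSLC25A1 and siACLY, 6 of these 9 genes were lower in siSLC25A1 and 1 higher (median -0.25), whereas 9 of the 10 ER genes were higher there. Among all genes, 16.3% were lower and 17.5% higher in that comparison.

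**Figure D4:**
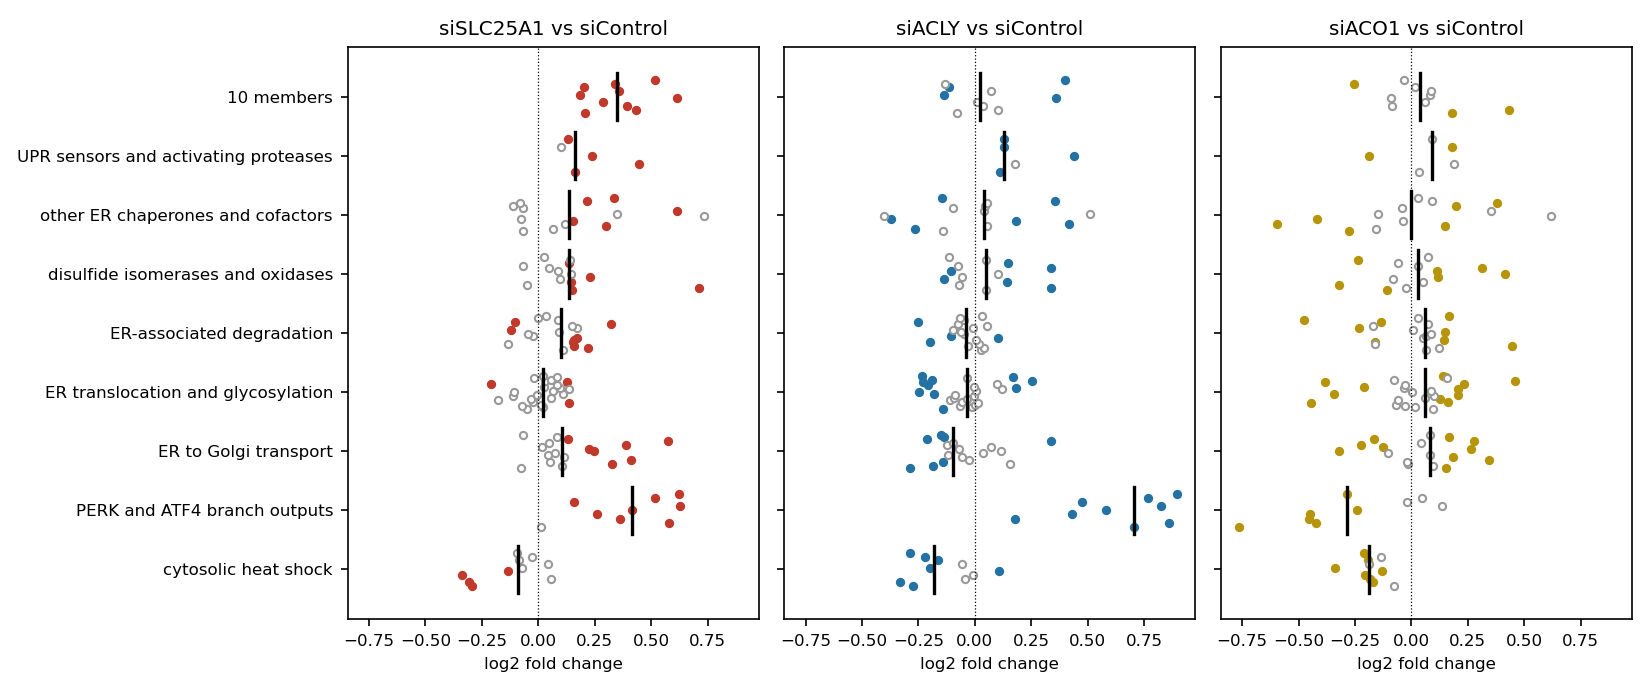
Log2 fold change against siControl of the 10 genes and of 8 other gene lists (rows) in each knockdown; each point is a gene, filled in colour where called at an adjusted p under 0.05, and the black bar is the median of the list. The medians of the 10 genes are 0.35, 0.02 and 0.04 from left to right, and those of the PERK and ATF4 outputs are 0.42, 0.71 and -0.29. The row labelled cytosolic heat shock also holds the mitochondrial HSPD1 and HSPE1.

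After knockdown of ACLY, 42.9% of the other chaperones, 46.2% of the disulfide enzymes, 22.2% of the ERAD genes, 40% of the translocation genes and 41.2% of the transport genes were called, beside 36.7% of all genes (18.4% higher and 18.3% lower). Other chaperones had 3 higher and 3 lower of 14 (DNAJC1 by 0.42 and SIL1 by 0.35 above siControl, FKBP14 at -0.37 and CRELD2 at -0.27), and disulfide enzymes 4 higher and 2 lower of 13 (QSOX1 and ERO1B both 0.34, P4HB -0.14). ERAD genes had 1 higher and 3 lower of 18, among them UBE2G2 (-0.25) and EDEM3 (-0.20). Translocation and glycosylation had 3 higher and 7 lower of 25 (SSR2 0.25, SRP14 -0.25, STT3B -0.23), and ER to Golgi transport 1 higher and 6 lower of 17 (SEC24D 0.34, the KDEL receptor KDELR1 -0.29). The 1 higher ERAD gene, FAF2 (0.10, adjusted p = 0.0492), was not called by DESeq2 or in 10 of the 12 fits that left out a library, and the 4 higher disulfide enzymes became 2 without siControl replicate 3 or siACLY replicate 3. The 2 lower disulfide enzymes became 1 with library totals, with no filter or a stricter filter on low counts, without any 1 siControl library and without siACLY replicate 1 or 3. The 3 higher translocation genes became 5 with library totals, in a fit of the 2 groups alone and without siACO1 replicate 3, and the 1 higher transport gene became 2 in the fit of the 2 groups alone and without siACLY replicate 2 or siACO1 replicate 3. With library totals in place of TMM the share of called genes that were higher in siACLY went from 50.1% to 61.0%, and the 2 falls among the 10 genes were no longer called.

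After knockdown of ACO1 the shares called in the same lists were 42.9%, 53.8%, 44.4%, 48% and 58.8%, beside 37.1% of all genes (17.8% higher and 19.3% lower). The counts were 3 higher and 3 lower among other chaperones (the collagen chaperone SERPINH1 0.38, DNAJC1 -0.60, FKBP14 -0.42), 4 and 3 among disulfide enzymes (PDIA5 0.42, ERP29 -0.32), 4 and 4 among ERAD genes (DERL2 0.44, the conjugating enzyme UBE2J1 -0.47), 8 and 4 in translocation and glycosylation, and 6 and 4 in ER to Golgi transport (MCFD2 0.34, SEC16A -0.32). SEC61A1, the pore of the translocon, was at 592 ± 2.39 CPM in siControl and 436 ± 3.14 in siACO1 (-0.44, adjusted p = 5.27e-11), while SSR2, of the translocon-associated complex, was 0.46 higher. MANF was not called (0.35, adjusted p = 0.0592), but it was called with library totals (0.40, adjusted p = 0.0284), by DESeq2 (0.35, adjusted p = 0.0283), under which 4 chaperones were higher, with no filter or a stricter filter on low counts, with a replicate block, in a non-robust fit, in a fit of the 2 groups alone and without siSLC25A1 replicate 1 or 2. The share of called genes that were higher went from 47.9% to 59.5% with library totals, under which 3 of the 10 genes were higher and 1 lower, and ERAD genes went from 4 higher and 4 lower to 9 higher and 1 lower. The 3 higher chaperones became 1 without siControl replicate 2, the 4 higher disulfide enzymes became 2 without siControl replicate 1 or 3, and the 4 lower ERAD genes became 2 without siControl replicate 2. The sum of the fibroblast markers, of which only COL1A2 was present, was also higher in siACO1 than in siControl (1546 to 1592 against 875 to 895 CPM). The part of COL1A2 in the SERPINH1 result was not tested.

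Of 10 tested genes of the heat shock list, which serve protein folding outside the ER, 0 were higher and 4 lower in siSLC25A1 (median -0.09). Beside them, 10.3% of all genes were called higher and 9.27% lower. The list includes HSPD1 and HSPE1, which are mitochondrial, while the others are cytosolic. HSP90AA1 was at 2449 ± 24.7 CPM in siControl and 1937 ± 222 in siSLC25A1 (-0.34, adjusted p = 7.58e-05), and DNAJA1 was at -0.31. In siACLY 1 was higher (HSP90AB1, 0.11, not called with any 1 siControl library left out) and 6 lower (DNAJA1 -0.33), and in siACO1 0 were higher and 7 lower (HSPA8 -0.34). The shares of all genes called lower were 18.3% in siACLY and 19.3% in siACO1. HSPA1A and HSPA1B were listed at 0 counts in every library and were not tested. How reads were counted is not given, so these values are uncertain and do not show that the transcripts were absent. The counts of 0 given above for lists against siControl in the main edgeR fit were also 0 by DESeq2 and at an unadjusted edgeR p under 0.05. The exception was 1 of the other chaperones, lower in siSLC25A1 at the unadjusted p.

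The promoter elements can be set beside these changes. In siSLC25A1 the 6 of the 10 genes with an ERSE or ERSE-II and the 4 without one were all higher, with medians of 0.35 and 0.34. Of the 38 other genes with an element in the table of promoters, a list made after the values were seen, 26 were tested, of which 4 were higher (ERO1B, FICD, NAV2 and SHCBP1) and 2 lower (GYS1 and SYNPO), with a median of 0.01. In siACLY 3 of these 26 were higher and 9 lower, and in siACO1 6 and 5. Among all genes tested, 10.3% were higher and 9.27% lower in siSLC25A1. The same shares were 18.4% and 18.3% in siACLY, and 17.8% and 19.3% in siACO1. Among the genes of the other lists that had a window in the promoter table (12 of 14 other chaperones, 12 of 13 disulfide enzymes, 14 of 20 ERAD genes, 22 of 26 translocation genes and 15 of 17 transport genes among them), ERO1B, CANX, CRELD2, PDIA6 and HYOU1 held an element.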

How the data were processed

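Gene counts are whole numbers that the authors deposited without normalization, 1 column for each of 12 libraries. Per the submitters' processing notes, CASAVA, FastQC, Trim Galore, STAR 2.7.0e and DESeq2 were used and the builds GRCh38 and GRCm39 are named. The counting tool, annotation release and use of strand are not given in the sources used here. Symbols matched 62700 of 70116 identifiers (89.4%). Gene coordinates are from GENCODE release 29 on GRCh38 and promoters from RefSeq on GRCh38.p14.

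The fit used edgeR 4.0.16 under R 4.3.3: filterByExpr (16197 genes), TMM, a robust quasi-likelihood model of 12 libraries and 4 groups with no block (8 residual degrees of freedom), two-sided tests of 6 comparisons and Benjamini-Hochberg adjustment over all genes tested. Scripts were tested on simulated data. Alternatives were other scaling, filters and fits, DESeq2 1.42.0, a replicate block, a log2 fold threshold of 0.5 and leaving out each library; those for single genes of other lists were added after seeing the data. CPM are relative to each library, so a change in total RNA per cell would not be seen, and fewer cells and less RNA per cell cannot be told apart.

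The 10 genes and all lists were chosen with earlier results of these data known. Named genes are the 3 targets, the 10 genes, the sensors, from each list and knockdown at most the 2 largest called rises and 2 largest called falls whose higher group averaged 5 CPM or more and whose 3 libraries lay outside the control range, and the 5 genes nearest to HSPA5 and to the mean of the 10; others were named after their values were seen. Genes named for a change of their own are called uncertain if 20% or more of their exon sequence is shared with overlapping genes on either strand. Other such genes are counted in the lists without this mark, among them PDIA6 (25.2%) and HSPE1 (23.9%).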

Additional observations from a re-analysis of the deposited data

How the results depend on the processing

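No result changed direction while called. For the 10 genes, 1170 of 1200 alternative values kept their side of the threshold, 21 lost a call and 9 gained one. With library totals, 2 of the 10 were called in siACLY, and leaving out 1 library gave 2 to 4. Leave-one-out counts were 9 to 10 in siSLC25A1 and 2 to 3 in siACO1 against siControl. Requiring a log2 fold change of at least 0.5 left 691 genes in siSLC25A1, 1851 in siACLY and 1835 in siACO1 against siControl, 1555 between siSLC25A1 and siACLY, 2454 between siSLC25A1 and siACO1 and 2431 between siACLY and siACO1, with 2, 0, 0, 0, 3 and 0 of the 10 genes; fewer pass by construction. The share of called genes that were higher went with library totals from 51.8% to 41.0% between siSLC25A1 and siACLY and from 51.8% to 42.2% between siSLC25A1 and siACO1, with 9 and 7 of the 10 genes higher as before. The cause of the other changes was not tested.

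Whether libraries with the same replicate number shared a culture or day is not stated. Of 18 same-numbered pairs of libraries 0 had deviations correlated above 0.1 (-0.03 to 0.07, with -0.07 to 0.07 for other pairs). Of 12 libraries 6 were closest to their own number. These values do not settle whether the replicates were paired. With the replicate block, 10, 4, 3, 9, 8 and 6 of the 10 genes were called in the 6 comparisons in the order above, against 10, 4, 3, 9, 7 and 6 without it, and 3270, 6038, 6093, 5592, 6893 and 6874 genes in all. The gene gained was HSP90B1 between siSLC25A1 and siACO1 (0.10, adjusted p = 0.0466). At this depth the lowest count of any of the 10 genes in a library was 533, of DNAJB9, whose counting error alone is 4.33%, near the 4.89% spread of that gene over the siControl libraries; the other 9 genes had 549 counts or more.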
